A study of Mus musculus with 92 samples.

Results

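Livers of 9 male control mice were compared, 5 after 18 months and 4 after 9 months of daily gavage without test compound, out of the 92 animals of the series. They were chosen by their labels alone, as the males at 0 mg/kg: animals 1061, 1062, 1063, 1064 and 1069 at 18 months against 1041, 1043, 1044 and 1045 at 9 months. All 9 were CD-1 mice, an outbred stock, labelled wild type, and each gave 1 library, so no value comes from pooled animals. The rest of the series received HFPO-DA, a fluorinated ether acid from fluoropolymer production, at 5, 0.5, 0.1 or 0.05 mg/kg. Of those groups, the males at 0.05 mg/kg (4 at 18 months, 5 at 9 months) and at 0.1 mg/kg (3 and 5) served as other animals of the same sex and durations, and 10 female controls (5 and 5) as the other sex. The labels give the length of dosing and not the age. Here 9 more months of gavage, 9 more months of age, the handling of each necropsy and sequencing depth cannot be told apart.

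Most of the liver is made of hepatocytes, which secrete nearly all plasma proteins, make cholesterol and bile acids, and carry the cytochrome P450 enzymes that oxidise steroids, fatty acids and drugs. Several of these enzymes differ between the sexes in the mouse under the control of growth hormone pulses, and many differ between the portal and the central end of the liver lobule. Macrophages, lymphocytes and stellate cells, which make collagen, are the minor cell types whose genes are often followed in the ageing liver. The RNA was read by TempO-Seq, which counts ligated pairs of detector oligos that sit side by side on a chosen transcript. A value is thus the number of reads of a short probe site, not of a whole transcript. In such bulk tissue, fewer cells of a type and less RNA per cell cannot be told apart.

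Sequencing depth went with duration. Total counts were 4929678 to 5577049 at 9 months and 9234451 to 17638156 at 18 months, and 11576 to 12058 against 12879 to 13926 genes had a count. For both measures the groups did not overlap (two-sided exact permutation p = 0.0159, the smallest that 4 against 5 animals allow). Thinning every library to the smallest total left all 16 genes described below called, among 37 called in that fit. Thinning evens the totals only and cannot remove other differences between libraries that go with duration. The summed level of 4 Y-linked genes was 63.6 to 86.6 CPM, a count scaled to a common library size, in the 9 livers. The hepatocyte list summed to 25930 to 30350 CPM at 9 months, 30900 to 60630 in animals 1061 to 1064 and 119000 in animal 1069, and 11 of its 12 genes were measured.

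Animal 1069, replicate 5 of the 18-month group, stood apart from the other 4. It held 243 genes more than 4-fold above and 214 more than 4-fold below the rest of its group, against 13 to 28 and 16 to 38 in animals 1061 to 1064. Cyp4a12a, a male-biased fatty acid hydroxylase, was at 9.08 CPM in 1069 and at 307 to 480 in the other 18-month livers. Cyp7a1, the rate-limiting enzyme of bile acid synthesis, was at 4.23 CPM against 156 to 204, and Cyp2f2, a periportal P450, at 17.4 against 255 to 592. In the opposite direction, Afp, the fetal serum protein, was at 344 CPM against 1.5 to 12.7, and the steroid reductase Akr1c18 was at 577 against 0.828 to 3.02. The following genes were chosen after their values were seen. Lcn2, an acute phase protein, was at 1130 CPM in 1069 against 7.27 to 51.5, Slpi, a protease inhibitor, at 499 against 5.56 to 6.23, and Apoa4, an apolipoprotein, at 14329 against 188 to 638. Elovl3, a male-biased elongase, was at 10.1 CPM against 333 to 2168, and Cyp2e1, a pericentral P450, at 470 against 6530 to 13253. The pancreatic enzyme gene Cela1 was at 64.2 CPM against 0.276 to 3.75.

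**Figure D1:**
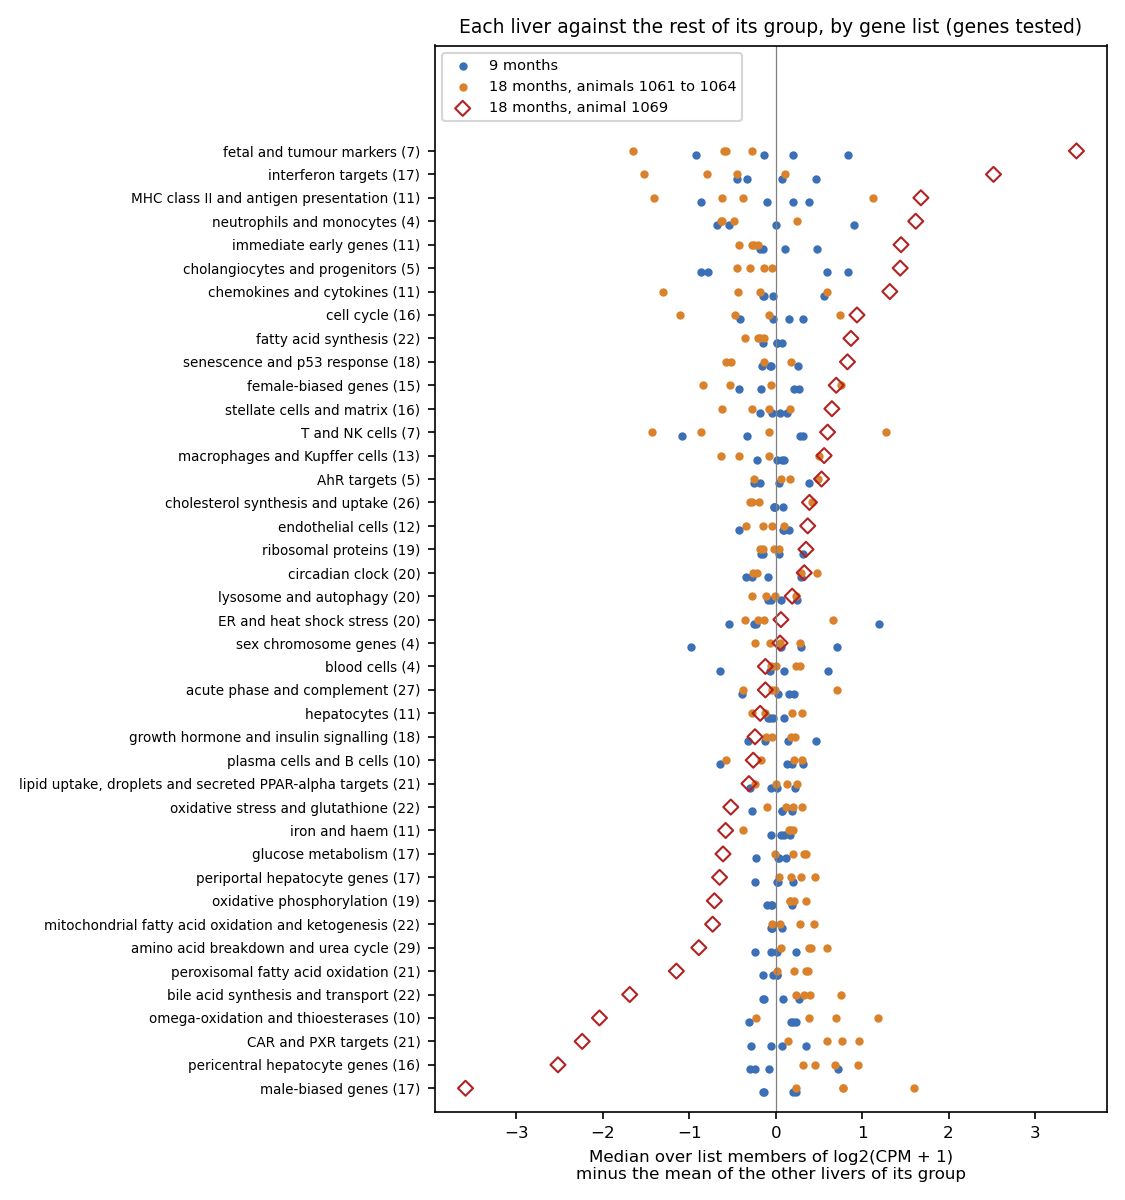
Each row is a gene list with its number of genes tested, and each point 1 liver; the x axis gives each liver's log2(CPM + 1) less the mean of the other livers in its group, as a median over the list, with 9-month livers in blue, animals 1061 to 1064 in orange and animal 1069 as an open red diamond. Animal 1069 lies at 3.48 for fetal and tumour markers and at -3.59 for male-biased genes, outside the other 18-month livers in both.

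By list, 1069 was at 3.48 on this log2 scale above the rest of its group for fetal and tumour markers, at 2.52 for interferon targets and at 1.68 for antigen presentation. It was at -3.59 for male-biased genes, -2.52 for pericentral hepatocyte genes and -2.24 for genes that CAR and PXR, the drug receptors, induce. In animals 1061 to 1064 the same 6 lists lay between -1.65 and 1.6. Log2 changes of the called genes are therefore given with and without this animal.

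Few genes were called by edgeR between the 18-month and the 9-month livers at the adjusted threshold used here. Higher were a sterol desaturase (Sc5d), a macrophage phosphatase (Acp5), a secreted matrix protein (Spon2) and 5 others. Lower were Fam43a, the transcription factor genes Gabpb2 and Cebpb, and 5 others. With all 9 livers, 16 of 10728 genes tested were called at an adjusted p under 0.05 by edgeR's quasi-likelihood F test, 8 higher and 8 lower at 18 months. That is 0.149% of genes tested, or 0.0746% in each direction, and 1672 genes had an unadjusted p under 0.05. The median log2 change of all genes was 0.026. In all 16 the 2 groups did not overlap, which was also so for 7.75% of all genes tested, 3.81% in the higher and 3.93% in the lower direction. Without 1069, 137 of 10140 genes were called (1.35%), 82 higher (0.809%) and 55 lower (0.542%), and the 16 were among them. The common biological coefficient of variation was 0.413 with 1069 and 0.329 without it. At the same threshold DESeq2 called 426 of 12619 genes with all 9 livers and 502 of 9358 without 1069. The small edgeR count therefore does not show that few genes changed. The counts rested on single livers in both fits, and leave-one-out values are given after the genes.

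**Figure D2:**
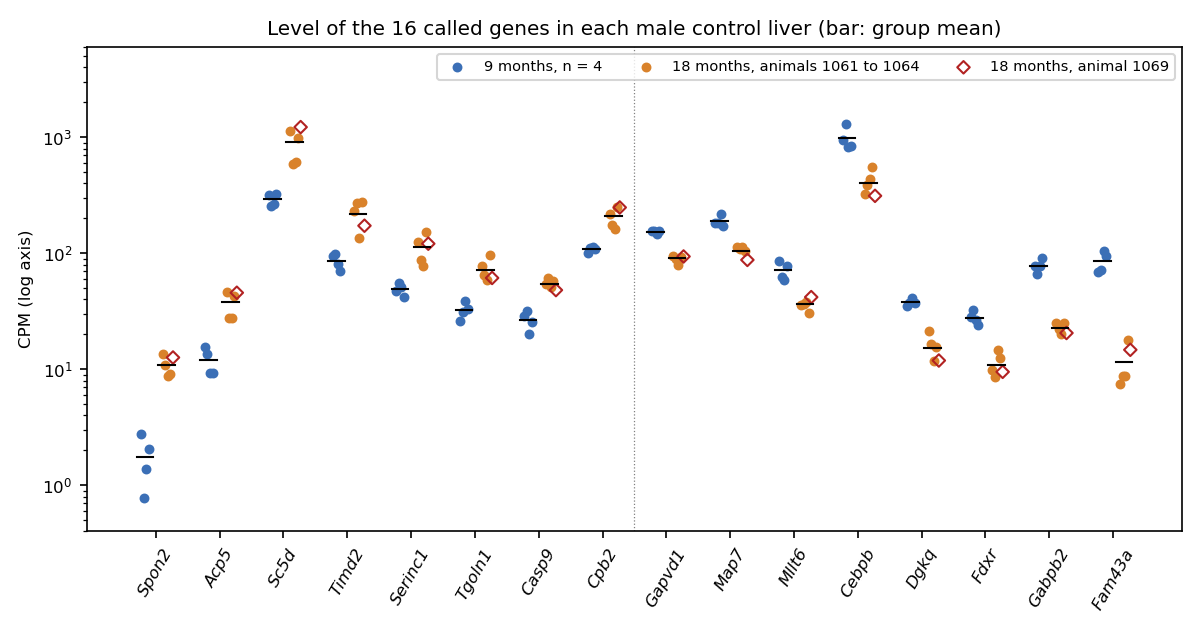
The y axis gives CPM on a log axis for the 16 called genes, 8 higher on the left and 8 lower on the right of the dotted line; points are single livers at 9 months (blue) and 18 months (orange, animal 1069 as an open red diamond), and bars are group means. The 9-month and 18-month points of each gene do not overlap, and 1069 lies among or next to the other 18-month livers. The genes were chosen by a fit that includes 1069, which favours both.

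The largest rise was in Spon2, which encodes a secreted matrix protein that takes part in innate immune recognition. It was at 2.77, 0.77, 1.39 and 2.07 CPM in the 9-month livers and at 13.5, 10.8, 8.77, 9.04 and 12.6 in the 18-month livers, in the order of the replicates. These levels are low, at most 13.5 CPM in any liver, and the 9-month libraries were the shallower ones, so the size of the rise is uncertain. All 18-month livers were above all 9-month livers, from 1.75 ± 0.861 (SD, n = 4) to 11 ± 2.12 (n = 5), a log2 change of 2.64 ± 0.39 (SE, adjusted p = 0.0433). Acp5, the tartrate-resistant acid phosphatase of macrophages and osteoclasts, was at 15.5, 13.5, 9.38 and 9.3 CPM at 9 months. It was at 46.5, 27.9, 27.7, 42.7 and 45.7 CPM at 18 months, with a log2 change of 1.68 ± 0.25 (adjusted p = 0.0433). The list of macrophage and Kupffer cell markers summed to 288 to 358 CPM at 9 months, 298 to 630 in animals 1061 to 1064 and 736 in 1069. Of its 16 genes 13 were tested and 0 were called with all 9 livers (5 with an unadjusted p under 0.05, 2 called by DESeq2), and none was at 0 in every liver. The part of these cells in the rises of Spon2 and Acp5 was not tested.

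Sc5d, the desaturase of the late steps of cholesterol synthesis, was the most abundant of the risen genes. Its levels were 317, 256, 266 and 325 CPM at 9 months and 1130, 590.4, 607, 991 and 1224 at 18 months, so that the lowest 18-month liver was well above the highest 9-month liver. The log2 change was 1.64 ± 0.25 (adjusted p = 0.0433), and 1.51 ± 0.21 without 1069 (adjusted p = 0.0124). Its promoter is shown because CCAAT boxes and sterol regulatory elements are the motifs known from sterol genes. The sequence below, from RefSeq (GRCm38.p6, chr9:42264251-42264550, minus strand, printed 5′ to 3′), runs from 250 bases before to 50 after the gene's start, with the CCAAT match, here on the reverse strand, in capitals.
Sc5d: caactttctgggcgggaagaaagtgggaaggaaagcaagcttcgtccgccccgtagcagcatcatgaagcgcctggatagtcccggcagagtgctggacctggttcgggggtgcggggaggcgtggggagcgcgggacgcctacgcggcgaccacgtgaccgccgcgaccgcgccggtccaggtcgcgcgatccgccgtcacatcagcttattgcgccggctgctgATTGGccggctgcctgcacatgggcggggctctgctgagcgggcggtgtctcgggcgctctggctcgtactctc
CCAAT, searched on both strands, was in 37.4% of 32851 promoters of this length. Of the 26 cholesterol list genes, 18 had such a promoter, 22 promoters in all, and 17 had the match in at least 1. The first share counts promoters and the second genes, so they are not directly comparable. A consensus sterol regulatory element was searched as well. This exact match was in 0 of the promoters of these 18 genes, Sc5d included, and in 0.0913% of all promoters. Elements with any other letter were not counted, so this search cannot show that these promoters lack one. These matches describe letters in a window and were not tested as sites.

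Around Sc5d, the cholesterol synthesis and uptake list had 1 of 26 genes called with all 9 livers, Sc5d itself, against 0.149% of all genes tested. The list median was 0.432 against 0.026 over all genes. Of its log2 changes 23 of 26 were positive, against 5643 of 10728 over all genes. Without 1069, 2 genes were called, against 1.35% of all genes tested, and the median was 0.286 against 0.007. The list summed to 3184 to 3268 CPM in the 9-month livers, a narrow range, and to 3714 to 6500 in the 18-month livers. This sum includes Sc5d, at 256 to 325 and 590 to 1224 CPM, which was named because it was called. The gap between the groups is therefore partly that of Sc5d and is no separate result for the list.

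The other 5 risen genes serve membranes, cell death and the blood. Timd2, a membrane receptor of the TIM family, was at 70.8 to 99.5 CPM at 9 months and 135 to 276 at 18 months, a log2 change of 1.33 ± 0.22. Serinc1, a membrane protein of the serine incorporator family, was at 41.7 to 55.8 and 77.8 to 153 CPM, a change of 1.21 ± 0.2. Tgoln1, an integral protein of the trans-Golgi network, was at 26 to 38.6 and 59.3 to 96 CPM, a change of 1.16 ± 0.19. Casp9, the initiator caspase of the mitochondrial death pathway, was at 28.8, 31.8, 20.3 and 25.3 CPM at 9 months and 54.1, 61.8, 51.6, 57.7 and 48.2 at 18 months. These groups were tight and separate, and the log2 change was 1.04 ± 0.17 (adjusted p = 0.0433). Cpb2 encodes a plasma carboxypeptidase that slows the dissolution of clots. It rose from 101 to 113 CPM to 162 to 252, by 0.96 ± 0.16 (adjusted p = 0.0449), and lost its call under 4 of 9 alternatives, which were RLE normalisation, fits that add other groups and probes tested singly.

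Fam43a had the largest fall and 1 of the 2 smallest p-values. It was at 69.3, 71.6, 105 and 94.6 CPM at 9 months and 7.49, 8.76, 8.71, 17.9 and 14.7 at 18 months, so that every 18-month liver was far below the lowest 9-month liver. The mean was 7.38-fold lower, from 85.2 ± 17.6 (n = 4) to 11.5 ± 4.54 CPM (n = 5), with a log2 change of -2.88 ± 0.27 (adjusted p = 0.000663). Gabpb2, a beta subunit of the transcription factor GA-binding protein, was at 77.1, 66.6, 78.2 and 91.1 CPM and then at 25.1, 22.4, 20.3, 24.9 and 20.5. The log2 change was -1.79 ± 0.15 (adjusted p = 0.000351). Of the 16 genes, Fam43a and Gabpb2 alone kept their calls without each of the 9 livers in turn (highest adjusted p = 0.0063 and 0.00377). The other 14 kept theirs in 1 to 3 of the 9 omissions.

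Cebpb encodes C/EBP-beta, a transcription factor of the acute phase response and of gluconeogenesis. It was at 946, 1301, 824 and 842 CPM at 9 months and 322, 384, 439, 549 and 313 at 18 months, all lower, a log2 change of -1.29 ± 0.22 (adjusted p = 0.0449). Fdxr, the mitochondrial reductase that feeds electrons to P450 enzymes, was at 24.1 to 32.7 and 8.51 to 14.7 CPM, a change of -1.34 ± 0.22. Dgkq, a diacylglycerol kinase, was at 35.2 to 41.5 and 11.8 to 21.3 CPM, a change of -1.3 ± 0.21. The remaining falls were smaller and the groups still apart. Mllt6, a zinc finger protein known as a leukaemia fusion partner, fell by 0.96 ± 0.16 on the log2 scale, from 58.5 to 86.3 CPM to 30.7 to 41.9. Map7, which binds microtubules, fell by 0.84 ± 0.14, and Gapvd1, which acts on small GTPases in endocytosis, by 0.76 ± 0.12. Gapvd1 had the tightest groups, 146 to 156 CPM at 9 months and 79.6 to 94.8 at 18 months.

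Probes of the same gene did not always move together. Of the 16 genes, 11 had 1 probe. Gabpb2 had 2, and they differed: probe 75426 was at 52.4, 38.1, 60.3 and 65.1 CPM at 9 months and at 2.54, 5.9, 1.96, 2.28 and 1.78 at 18 months, while probe 65925 was at 17.9 to 28.5 and 16.5 to 22.6. The log2 ratios of the means were -4.22 and -0.3, so the fall of Gabpb2 was carried by 1 of its probes. The 2 probes of Cebpb were at -1.43 and -1.02. Those of Casp9 were at 1.17 and 0.43, those of Gapvd1 at -0.78, -1.64 and -0.41, and the main probe of Map7, with 88.6% of its counts, at -0.95 beside 0.17 for the next. Which probe follows the transcript was not tested.

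Without 1069, with 4 against 4 livers, the rises were of similar size. The 16 genes were called in the fit that includes 1069, which favours genes where this animal lies with its group. The closeness of the values with and without it is therefore a description and no independent support. The log2 change was 2.57 ± 0.42 for Spon2, 1.6 ± 0.26 for Acp5, 1.4 ± 0.21 for Timd2, 1.18 ± 0.2 for Serinc1, 1.21 ± 0.19 for Tgoln1, 1.08 ± 0.17 for Casp9 and 0.89 ± 0.15 for Cpb2. The falls were likewise close to those with all livers, at -2.99 ± 0.27 for Fam43a, -1.76 ± 0.16 for Gabpb2, -1.3 ± 0.23 for Fdxr, -1.23 ± 0.21 for Dgkq and -1.21 ± 0.2 for Cebpb. Mllt6 was at -1.01 ± 0.16, Map7 at -0.78 ± 0.13 and Gapvd1 at -0.78 ± 0.12. In a fit of all 19 controls 5 of the 16 kept their calls, namely Casp9, Dgkq, Fam43a, Gabpb2 and Gapvd1. In a fit of all dose groups 9 did, these 5 with Acp5, Fdxr, Sc5d and Timd2.

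The number of calls moved with almost any single liver. Leaving out a 9-month liver left 2 or 3 called genes, and leaving out 18-month replicates 1, 2 and 4 left 2, 5 and 2. Without 18-month replicate 3 the count was 36, and without replicate 5 (1069) it was 137. Of those 137, 2 were called when 9-month replicate 4 was also left out and 4 when 18-month replicate 1 was. The fits without 1069 called 38 genes without 9-month replicate 1 (35 of them among the 137), 72 without replicate 3 (59), 31 without 18-month replicate 4 (30) and 213 without replicate 3 (122). Over the 9 omissions the log2 change of Spon2 ranged from 2.4 to 2.94, that of Sc5d from 1.51 to 1.76 and that of Cebpb from -1.42 to -1.11. These genes were called in the same livers and each omission keeps most of them, so small shifts are partly built in.

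The results from here to the comparison with other animals are those without 1069 (4 against 4 livers), and the 9-liver values of the called genes named stand beside them or after the lists. Of 609 distinct genes of the 43 lists tested with all 9 livers, 1 was called, and 132 had an unadjusted p under 0.05. Without 1069, 25 of 579 list genes tested were called, 23 higher and 2 lower, in 17 of the lists, against 1.35% of all genes called, 0.809% higher and 0.542% lower. The counts of list members below are read against these shares. Of all genes tested without 1069, 5145 of 10140 had a positive log2 change, and counts of positive changes are read against that. Of these 25, 0 were called by edgeR when 9-month replicate 4 was left out as well, and 2 when 18-month replicate 1 was.

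**Figure D3:**
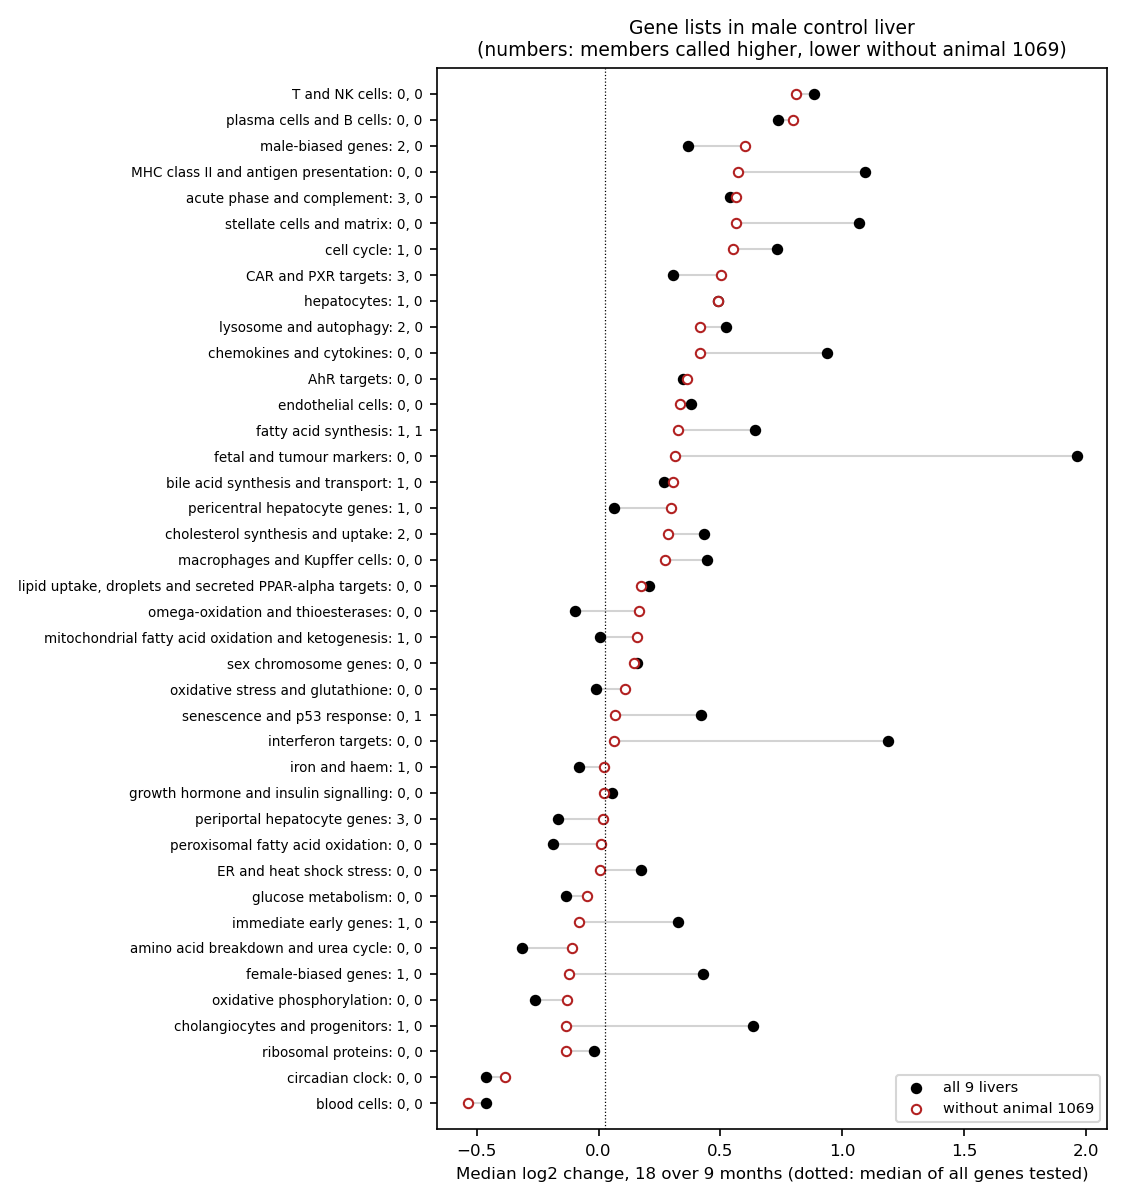
Each row is a gene list with at least 3 genes tested in both fits and the numbers of its members called higher and lower without animal 1069, and the x axis is the median log2 change from 9 to 18 months, with all 9 livers (black) and without 1069 (open red); the dotted line is the median of all genes tested, 0.026. The median of interferon targets goes from 1.186 to 0.063 and that of fetal and tumour markers from 1.961 to 0.315 without 1069, while that of hepatocyte markers is 0.492 in both.

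Some genes of secreted plasma proteins rose without 1069. Alb, the most abundant plasma protein of the blood, was at 1982, 2019, 1695 and 1933 CPM at 9 months and 5801, 3724, 2781 and 5838 in animals 1061 to 1064, without overlap. It rose by 1.25 ± 0.23 (adjusted p = 0.0193), and stood at 1.47 ± 0.32 (adjusted p = 0.084) with 1069 at 8330 CPM. In the acute phase and complement list, 3 of 27 rose and 0 fell, with a median of 0.563 and all 27 log2 changes positive. Apcs, the amyloid P component, rose by 1.05 ± 0.15, from 49.9 to 63.7 CPM to 101 to 140. Hp, which captures free haemoglobin, rose by 1.04 ± 0.2, and Itih4, an inter-alpha-trypsin inhibitor heavy chain, by 0.9 ± 0.19. With 1069 these 3 had adjusted p of 0.118, 0.0901 and 0.0758. Saa1, the acute phase serum amyloid, showed no such separation, at 98 to 716 CPM and 87 to 828.

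Because albumin and haptoglobin are not the only such proteins, 2 further groups were put together after values were seen, and their counts are descriptions only. Of 18 other plasma proteins, 10 rose and 0 fell without 1069, all 18 log2 changes were positive, and the median was 0.969. Pzp, a broad protease inhibitor, was at 485 to 746 CPM at 9 months and 894 to 1883 in animals 1061 to 1064, and rose by 1.27 ± 0.24. Agt, the precursor of angiotensin, rose by 1.57 ± 0.32, Serpinf1 by 1.25 ± 0.23, and Gc, the vitamin D carrier, by 1.05 ± 0.23. Rbp4, the retinol carrier, was an exception at 0.01. Of 20 genes of coagulation and its inhibitors, 4 rose and 0 fell, namely Cpb2, Serpind1, Serpinc1 (antithrombin) and F5, with 19 positive and a median of 0.753. Proc, the anticoagulant protein C, was the exception at -0.18. With all 9 livers the counts of the 2 groups were 0 and 1, the latter Cpb2, and the medians 1.133 and 0.653. The plasma protein group summed to 9201 to 11050 CPM at 9 months, 12500 to 23500 in animals 1061 to 1064 and 26500 in 1069.

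Genes that move secreted proteins through the endoplasmic reticulum were also compared, in a group of 19 likewise made after values were seen. Without 1069, 17 were tested and 3 rose. They were Rpn2, a subunit of the oligosaccharyltransferase, by 1.27 ± 0.25, Lman1, a cargo receptor for glycoproteins, by 0.77 ± 0.17, and Erp44, a chaperone, by 0.81 ± 0.18. The median of the group was 0.418. The list of endoplasmic reticulum and heat shock stress had 0 of 19 called by edgeR (3 with an unadjusted p under 0.05, 1 called by DESeq2) and a median of 0.007. Calr, its gene of smallest p, was at 585, 606, 1113 and 635 CPM and then at 1713, 1295, 939 and 3266, with overlapping groups.

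Among lysosomal genes, 2 of 20 rose without 1069. Lamp2, a lysosomal membrane protein, was at 126 to 137 CPM at 9 months and 329, 225, 177 and 344 in animals 1061 to 1064, and rose by 1.03 ± 0.19 (adjusted p = 0.0193). Animal 1069 was at 134 CPM, within the 9-month range, and with it the adjusted p was 0.129. Lgmn, the lysosomal protease legumain, rose by 0.79 ± 0.18, a call lost without any 1 of the other 8 livers. The list had a median of 0.418, with 17 positive. Ctsc, a lysosomal protease that the periportal list holds, was at 6.54 to 17.9 and 26.4 to 40.6 CPM and rose by 1.67 ± 0.29. Its level in 1069 was 99.6.

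Single cytochrome P450 genes rose without 1069. Of 20 CAR and PXR targets, which are drug-inducible genes, 3 rose and 0 fell without 1069, with a median of 0.501. Cyp3a13 was at 13.1, 16.2, 13.9 and 15.5 CPM at 9 months and 47.4, 25.8, 53.5 and 80.6 at 18 months, and rose by 1.82 ± 0.29 (adjusted p = 0.0124), with 1069 at 15.2, among the 9-month livers. Cyp3a11 rose by 0.93 ± 0.2 and Cyp2c29 by 1.09 ± 0.25, and 1069 held 217 and 81.3 CPM of them, below all other 8 livers. Of 17 male-biased genes, 2 rose, Cyp4a12a by 0.98 ± 0.17 and Cyp4a12b by 1.8 ± 0.3. Of 10 female-biased genes 1 rose, Cyp3a41b by 1.24 ± 0.22. Cyp4a12a and Cyp4a12b, like Cyp3a41b and Cyp3a11, have close relatives whose probes may take each other's transcripts, so these values are uncertain. With 1069 none of these 6 genes was called (adjusted p = 0.114 to 0.747).

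In lipid metabolism the called changes were few. Elovl5, an elongase of polyunsaturated fatty acids, rose by 1.48 ± 0.29 without 1069, from 201 to 277 CPM to 324 to 906, and was at 1112 in 1069 (adjusted p = 0.0596 with it). Mlxipl encodes ChREBP, the glucose-responsive activator of fat synthesis. It was at 175, 203, 220 and 225 CPM at 9 months and 105, 128, 133 and 68 in animals 1061 to 1064, and fell by 0.93 ± 0.19 on the log2 scale. These were the 2 calls among 22 fatty acid synthesis genes. Bdh1, which makes the ketone body hydroxybutyrate, rose by 1.2 ± 0.22, the 1 call of 22 in mitochondrial oxidation and ketogenesis. Peroxisomal oxidation had 0 of 20 called by edgeR, omega-oxidation 0 of 10 and lipid uptake 0 of 20, with 2, 2 and 7 unadjusted p under 0.05 and 2, 1 and 0 called by DESeq2. Ppara, the receptor that HFPO-DA is known to activate, was at 86.3 to 190 CPM and 124 to 214 and had a log2 change of 0.26 ± 0.23 (adjusted p = 0.652), and of 0.23 ± 0.23 (adjusted p = 0.667) with 1069. Baat, which conjugates bile acids, was the 1 call of 22 in bile acid genes, at 0.63 ± 0.13.

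Single genes of other lists passed without 1069. Spp1, or osteopontin, made by cholangiocytes and macrophages, was at 10.3, 11.2, 22.1 and 25.3 CPM and then 41.3, 45.1, 32.1 and 53.4, a rise of 1.31 ± 0.29. Its level in 1069 was 134. Egr1, an immediate early transcription factor, was at 3.65 to 7.58 and 16.6 to 22.8 CPM, a rise of 1.68 ± 0.28, with 67.2 in 1069. Mcm6, a subunit of the replicative helicase, rose by 2.13 ± 0.47, and this call was lost without any 1 of the other 8 livers. Its list, cell cycle, had 1 of 16 called, and the proliferation marker Mki67 had too few counts to be tested. Bax, a pro-death member of the BCL2 family, fell by 0.74 ± 0.16, from 81.9 to 118 CPM to 51.5 to 66.2, while 1069 had 142. Pigr, the transporter of immunoglobulin A into bile, rose by 0.97 ± 0.2, and Cp, the copper carrier ceruloplasmin, by 0.99 ± 0.22. Outside the lists, the largest changes called in this fit alone were the rise of Gngt1 (1.95 ± 0.31) and the falls of Stag3 (-3.01 ± 0.62), Ttll8 (-2.53 ± 0.53), Wdfy1 (-2.01 ± 0.44) and Doc2g (-1.98 ± 0.4). The 4 falls rested on low levels, at most 15.1 CPM in any liver.

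In 26 of the 43 lists 0 genes were called by edgeR without 1069. They held 318 distinct genes tested, of which 54 had an unadjusted p under 0.05 and 13 were called by DESeq2. Among them were the markers of immune and matrix cells. For plasma cells and B cells the summed level was 236 to 279 CPM at 9 months and 259 to 382 in animals 1061 to 1064. Without 1069 the median of this list was 0.797, with 8 of 10 log2 changes positive. That of T and NK cells was 0.809, with 5 of 5 positive, and in both lists 0 genes had an unadjusted p under 0.05. Igkc, the kappa light chain, was at 3.79 to 8.67 CPM and then 13.3, 4.41, 17.7 and 113, with 1 liver, replicate 4, far above the rest. Stellate cell and matrix genes summed to 926 to 1286 and 1247 to 2201 CPM, and to 4864 in 1069. Lum, a small matrix proteoglycan, was at 1.04 to 5.78 CPM and 6.64 to 17.7, without overlap, at 2.01 ± 0.48 (adjusted p = 0.0581), and at 2.11 ± 0.48 (adjusted p = 0.0901) with 1069. The list had 0 of 16 called with all 9 livers (6 with an unadjusted p under 0.05, 2 called by DESeq2) and 0 of 13 without 1069 (7 and 1). MHC class II and antigen presentation summed to 1136 to 1816 and 1499 to 2717 CPM, and to 4225 in 1069. Interferon targets summed to 345 to 524 and 287 to 779, and to 2029 in 1069. The medians of these last 3 lists were 1.067, 1.092 and 1.186 with 1069 and 0.562, 0.573 and 0.063 without it. Without 1069 their positive log2 changes were 13 of 13, 11 of 11 and 10 of 17.

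Genes of core metabolism and of protein synthesis had 0 calls by edgeR. Without 1069, oxidative phosphorylation was at -0.13 (-0.261 with 1069, 19 genes, 3 with an unadjusted p under 0.05, 0 called by edgeR or DESeq2) and ribosomal proteins at -0.135 (-0.017 with 1069, 19 genes, 4, and 1 by DESeq2). Amino acid breakdown and the urea cycle were at -0.11 (-0.316 with 1069, 29 genes, 6, and 1 by DESeq2). Growth hormone and insulin signalling was at 0.023, and Igf1, its circulating growth factor, was at 33.9 to 49.1 CPM at 9 months and 45.5 to 47.1 in animals 1061 to 1064, with 20.6 in 1069. Blood cell genes had the lowest median, -0.537, over 3 genes. Hba-a2, an alpha globin gene, was at 141, 142, 49.9 and 80.1 CPM and then 57.5, 49, 46.3 and 31, with overlapping groups, and its near-identical copy makes this value uncertain.

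With all 9 livers these list genes were not called, and their log2 changes kept their sign. Lgmn was at 1.09 ± 0.26, Ctsc at 2.13 ± 0.44, Mlxipl at -1.11 ± 0.28, Bdh1 at 1.39 ± 0.27 and Baat at 0.4 ± 0.35. Spp1 was at 1.83 ± 0.48, Egr1 at 2.26 ± 0.46, Mcm6 at 2.33 ± 0.49, Bax at -0.4 ± 0.27, Pigr at 0.83 ± 0.25 and Cp at 1.44 ± 0.4. Of the genes grouped after values were seen, Agt was at 1.47 ± 0.32, Pzp at 1.76 ± 0.42, Rpn2 at 1.4 ± 0.26, Lman1 at 0.82 ± 0.18 and Erp44 at 0.85 ± 0.18. The adjusted p of these 16 genes with all 9 livers was 0.0593 (Rpn2) to 0.628 (Baat).

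The same interval was compared in other animals, which share no library with the male controls. Males at 0.05 mg/kg had 0 of 10160 genes called by edgeR between 18 and 9 months (702 with an unadjusted p under 0.05, 8 called by DESeq2). Males at 0.1 mg/kg had 781 of 10050 called (7.77%, and 373 without 18-month replicate 1), and female controls, in a fit with the male controls, 899 of 11293 (7.96%). In that fit of 19 libraries the male controls themselves had 8 called (0.0708%), 1 higher (0.00886%) and 7 lower (0.062%). Of the 16 genes, 15, 16 and 15 had the same sign in these 3 sets, and 0, 10 and 7 were also called. All 8 rises had the same sign in each set, where 55.5%, 46.5% and 50.3% of all genes tested were higher at 18 months. These sets span the same 2 durations, and the part of depth or handling in the shared signs was not tested. Acp5 was at 1.11 ± 0.59, 2.01 ± 0.24 and 1.97 ± 0.32 in the 0.05 mg/kg males, the 0.1 mg/kg males and the female controls, Sc5d at 0.82 ± 0.57, 1.33 ± 0.17 and 1.28 ± 0.29, and Serinc1 at 1.23 ± 0.45, 1.57 ± 0.18 and 1.76 ± 0.25. Among the falls, Gabpb2 was at -1.06 ± 0.25, -0.11 ± 0.22 and -1.51 ± 0.15, and Dgkq at 0.08 ± 0.27, -1.09 ± 0.22 and -0.69 ± 0.22. Fam43a was at -0.91 ± 0.46, -0.36 ± 0.13 and 0.34 ± 0.27, and was called in none of these sets. The part of HFPO-DA in the values of the dosed animals was not tested.

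**Figure D4:**
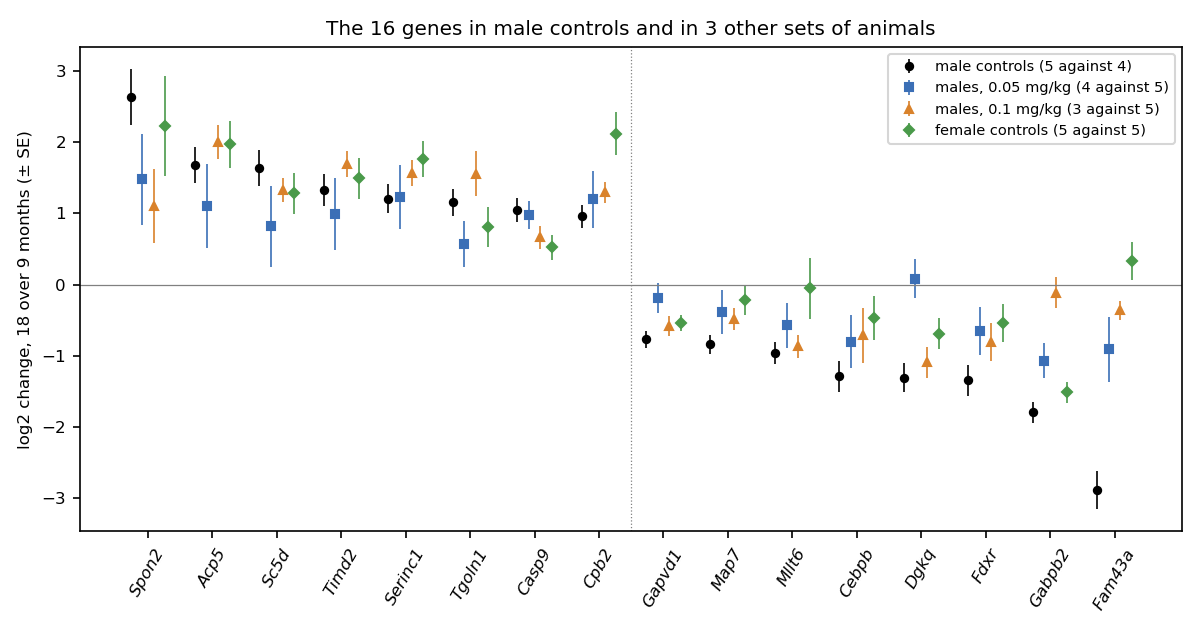
The y axis gives the log2 change from 9 to 18 months with its SE for the 16 genes in male controls (black), males at 0.05 mg/kg (blue squares), males at 0.1 mg/kg (orange triangles) and female controls (green diamonds). The 8 rises on the left lie above 0 in every set. Fam43a lies at -2.88 in male controls, at -0.91 and -0.36 in males at 0.05 and 0.1 mg/kg, and at 0.34 in female controls.

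Of the 137 genes called without 1069, 129, 133 and 122 had the same sign in the 3 sets. Of the 82 rises, 80 had it in each set, against 55.5%, 46.5% and 50.3% of all genes tested there that were higher. Of these rises 0, 65 and 56 were called there, against background shares of 0%, 5.63% and 6.09% called higher. Of the 55 falls, 49, 53 and 42 had it, and 0, 16 and 6 were called, against 0%, 2.14% and 1.87% called lower. Alb rose in the 0.1 mg/kg males and the female controls, by 1.8 ± 0.16 and 2.22 ± 0.36, and was at 1.9 ± 0.47 (adjusted p = 0.703) in the 0.05 mg/kg males.

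The difference between male and female controls in the 18 against 9 month change was tested as an interaction over 19 libraries and 11293 genes, and 3 were called (0.0266%), 1 higher (0.00886%) and 2 lower (0.0177%) in males, with 934 at an unadjusted p under 0.05. Fam43a had the largest difference, -3.22 ± 0.4 (adjusted p = 0.00148). In female controls it was at 88.9 to 166 CPM at 9 months and 104 to 208 at 18 months, a log2 change of 0.34 ± 0.27 (adjusted p = 0.488). Males at 0.05 and 0.1 mg/kg were at -0.91 ± 0.46 (adjusted p = 0.728) and -0.36 ± 0.13 (adjusted p = 0.131) for Fam43a, lower but not called. Cps1, the first enzyme of the urea cycle, was at 7.99 to 17.9 CPM in males at 9 months and 2.64 to 6.71 at 18 months. Females were at 8.55 to 22.1 and 20.8 to 57.8, and the difference was -2.66 ± 0.45 (adjusted p = 0.0481). Sf3a3, a subunit of the splicing machinery, was at 23.7 to 54.6 and 42.7 to 63.5 CPM in males and fell in females by 1.4 ± 0.19, from 52.4 to 59 CPM to 17.8 to 26.8, a difference of 1.66 ± 0.28 (adjusted p = 0.0481). In the 0.05 and 0.1 mg/kg males Cps1 was at 1.55 ± 0.92 (adjusted p = 0.757) and 1.53 ± 0.24 (adjusted p = 0.00102), the sign of the females, and Sf3a3 at 0.75 ± 0.46 (adjusted p = 0.757) and 2.69 ± 0.26 (adjusted p = 2.06e-05). The interaction called 4 genes without 1069 and 4 without 18-month female replicate 3, with all 3 genes among them. In the fit of all dose groups it called 4 lower and 0 higher. Of the 3 genes only Fam43a was called there, and the adjusted p was 0.109 for Cps1 and 0.182 for Sf3a3.

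The 2 strongest falls were set against all 20 groups of the series, on CPM scaled over all 92 libraries. Fam43a was at 7.57 to 18.2 CPM in the 18-month male controls. In the 87 other libraries it was at 12.4 to 247, and 1 of them, an 18-month male at 0.05 mg/kg, lay at or below 18.2. The means of the other 19 groups were 55.6 to 176 CPM, the lowest being the 18-month males at 0.05 mg/kg, at 55.6 ± 28.9 (n = 4). Gabpb2 had another pattern. Its probe 75426 was at 53.3 ± 11.8 CPM in 9-month male controls (n = 4) and 2.9 ± 1.71 in 18-month male controls (n = 5). It was likewise low in 9-month males at 0.1, 0.5 and 5 mg/kg, with means of 4.69, 3.18 and 1.47. In 9-month females at these doses the means were 5.8, 11.8 and 10.7. Other low means were 4.77, 7.58 and 7.07 in 18-month females at 0, 0.05 and 0.1 mg/kg, and 7.29 to 12.2 in dosed 18-month males. This probe was high in 9-month males at 0.05 mg/kg (41.8) and in 9-month females at 0 and 0.05 mg/kg (49.7 and 35.3). It was also high in 18-month females at 0.5 and 5 mg/kg, with means of 41.8 and 36.3. The other probe of Gabpb2 had means of 15.5 to 27.6 CPM in the 19 other groups. These levels were looked up after the falls were seen, and no test was made of them.

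**Figure D5:**
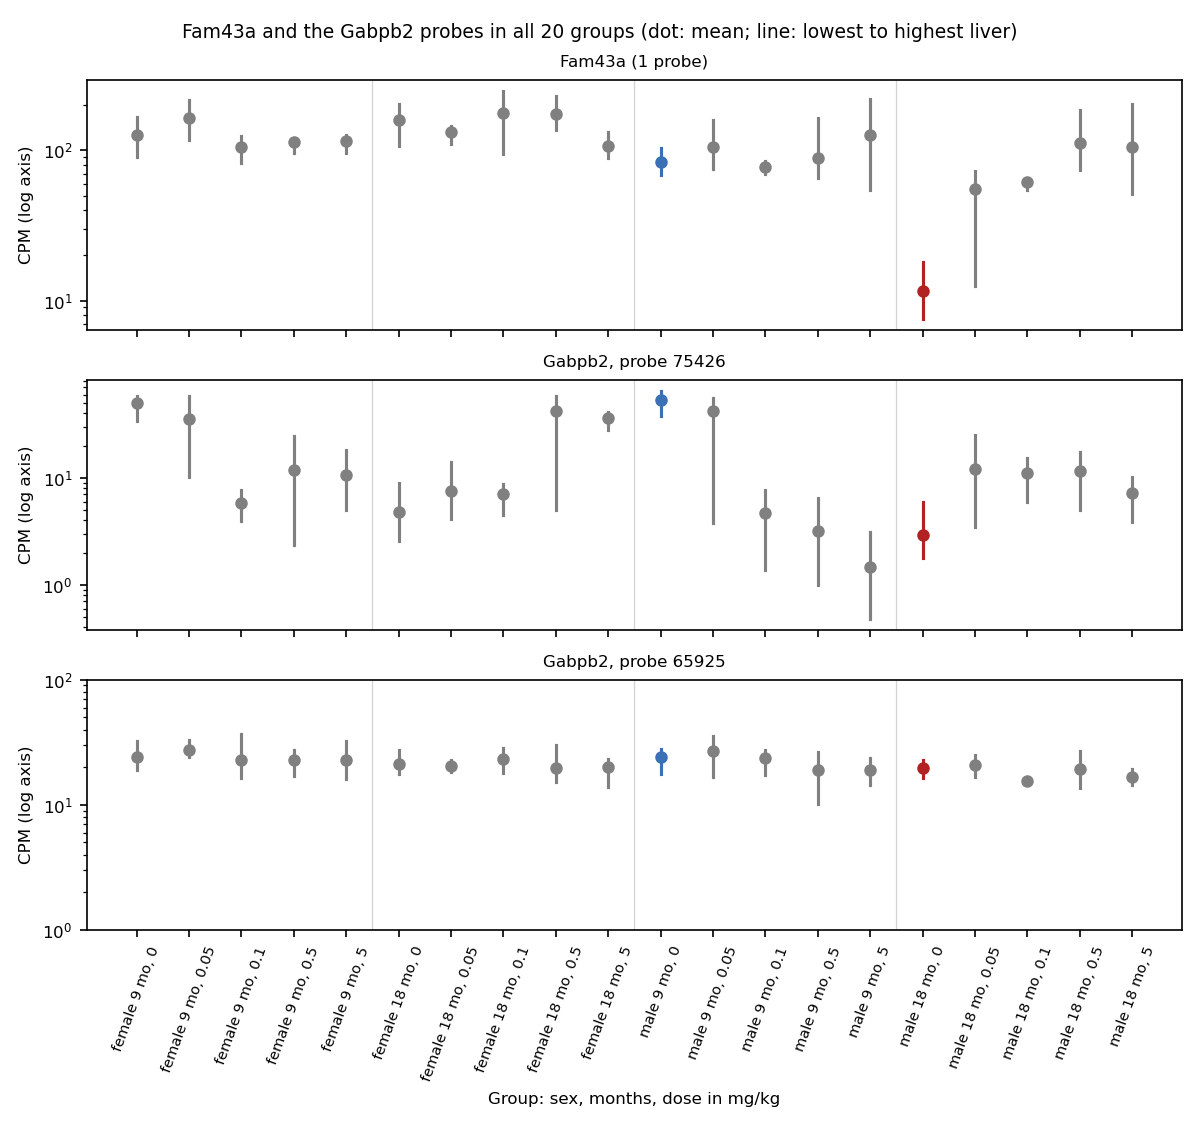
Each panel gives CPM on a log axis in the 20 groups, ordered by sex, months and dose, with dots for group means and lines from the lowest to the highest liver; 9-month male controls are blue and 18-month male controls red. Fam43a is low in the 18-month male controls, at 7.57 to 18.2 CPM, while probe 75426 of Gabpb2 is low in several 9-month groups as well and its probe 65925 stays between 10.1 and 37.1 in every library outside the 18-month male controls.

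The called genes also differed in base composition, taken from the longest coding transcript of each symbol. The median GC content was 44.4% for the 8 rises, 55.8% for the 8 falls and 49.9% for all genes tested. Without 1069 it was 47.3% for the 82 rises and 53.9% for the 54 of 55 falls with a transcript. Across the 10611 genes with a transcript, Spearman's rho of log2 change with GC content was -0.131. Without 1069 it was -0.144 across 10029 genes. Both values are descriptions across genes that share the same libraries. The part of base composition in the calls was not tested.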

How the data were processed

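Liver RNA of 9 male control mice was analysed from 1 table of the series. Per the labels' protocols, livers were fixed in formalin, embedded in paraffin, cut, scraped from slides and measured by TempO-Seq. Per the submitters' processing notes, bcl2fastq 2.17.1.14 and Bowtie were used. For Bowtie no version, and for the alignment no build or probe manifest, is given in the sources used here. The deposited values are raw counts per probe, and the labels mention no molecular identifiers, so counting error is a lower limit. Counts of the 30146 probe rows were summed to 21400 symbols, 6309 of them with more than 1 probe. CPM values use TMM-normalised library sizes of the genes that passed filterByExpr. Tests were quasi-likelihood F tests, robustly estimated, of edgeR 4.0.16 (limma 3.58.1, R 4.3.3), fitted to these 9 libraries, with Benjamini-Hochberg adjustment over all genes tested and a threshold of 0.05. SE was derived from the log2 change and its F statistic. Groups follow the labels, and replicate numbers only name animals. The labels do not say how litters or batches were laid out, and p-values measure the spread between these animals.

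The members, the 43 gene lists and the rules were chosen with earlier results of these data known. Named genes averaged 10 counts or more per library and were the largest called changes in either fit or interaction, up to 4 called members or the member of smallest p of each list, and 15 genes fixed by name. Genes outside this are said to be chosen after their values were seen. Lists got no set test. Of 749 list genes, 17 had no probe. Transcript GC content came from GENCODE, matched for 98.9% of genes tested, and promoters from RefSeq. The procedure was tested on simulated data. Alternatives were RLE and upper-quartile normalisation, no filter or 50 counts in 4 libraries, thinning, fits of all controls or all dose groups, DESeq2 1.42.0, probes tested singly, stricter thresholds and each library left out. For 1 gene named by this rule the result is not reported here.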

Additional observations from a re-analysis of the deposited data

Results flagged for a closer look

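In groups of 4 and 5 livers, a value was singled out where its gap to the nearest liver, as a share of the group's range, passed Dixon's 95% limit. This held for 33 of 174 sets of values, 21 of them in animal 1069. Some of these genes were named because they were called only without 1069. A chance rate therefore does not apply to this count, which is a description only. In 1069 the high CPM values were 577.13 for Akr1c18, 344.23 for Afp, 392.87 for Apcs, 11036 for Cp, 134.02 for Spp1, 142.31 for Bax, 99.614 for Ctsc, 68.822 for Lgmn, 67.166 for Egr1 and 64.221 for Cela1. It was also high for Ccr2 (24.229 CPM), Ccl2 (21.346), Cdkn1a (12.268), Gpnmb (8.4647) and Rps19 (1289.5), and it had the most genes detected, 13926. Its low CPM values were 2.6376 for Cps1, 4.2324 for Cyp7a1, 20.61 for Igf1, 39.011 for Baat and 45.575 for Abcd3.

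Other livers stood apart in fewer genes. Replicate 4 at 18 months had 112.52 CPM of Igkc and 27.457 of Jchain, the kappa light chain and the joining chain of antibodies. Replicate 1 at 18 months had the lowest total of its group, 9234451 counts. At 9 months, replicate 2 was high for Glul (393.73 CPM), B2m (219.1), Itih4 (180.4), Acta1 (11.937), Lpl (3.6582) and Mki67 (3.6582). Replicate 3 had 1113.4 CPM of Calr and 146.26 of Gapvd1, the latter the lowest of its group, and replicate 4 had 0.6889 of Akr1c18, which was at 0 in the other 3.

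The change from 9 to 18 months differed between male and female controls by the interaction test for Fam43a (-3.22 on the log2 scale), Cps1 (-2.66) and Sf3a3 (1.66).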

How the results depend on the processing

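With all 9 livers, the count of 16 called genes was 15 with RLE normalisation and 16 with upper-quartile normalisation. It was 60 without a low-count filter, 30 with 50 counts in 4 libraries, 37 with thinned libraries, 26 with probes tested singly, 8 in the fit of all controls (5 of the 16 among them), 73 in that of all dose groups (9 of the 16), 426 with DESeq2 and 2 at an adjusted p under 0.01. Without 1069, the count of 137 became 303 without a filter, 2 in the fit of all controls, 4 in that of all dose groups, 502 with DESeq2 and 2 at an adjusted p under 0.01. For list genes, the 1 call became 11, 2, 3, 3, 0, 11, 47 and 0 in the order without filter, 50 counts, thinned, probes singly, all controls, all dose groups, DESeq2 and adjusted p under 0.01. The 25 calls without 1069 became 44 without a filter, 0 in both larger fits, 66 with DESeq2 and 0 at the stricter threshold. Without each library in turn the counts ran from 2 to 137, from 2 to 213 without 1069, from 0 to 25 and from 0 to 39 for list genes, and from 373 to 801 in males at 0.1 mg/kg. The cause of these shifts was not tested, except that a stricter threshold lowers a count by construction. The 8 calls of DESeq2 in males at 0.05 mg/kg and the single-library omissions in dosed males were alternatives chosen after seeing the data. No result reversed its sign under any alternative where it was called. With all 9 livers the split of 8 higher and 8 lower became 41 and 19 without a filter, where the median of all genes was 0.128, 1 and 7 in the fit of all controls and 266 and 160 with DESeq2. No paired analysis was possible because replicate numbers only name the animals, and the labels pair none. Depth limits genes of low counts: totals at 9 months were all below those at 18 months, and Gpnmb, Akr1c18 and other genes at or near 0 at 9 months have no usable fold change.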

Other observations

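Clock genes varied widely within groups. Dbp, a clock output factor, was at 1114, 675, 32 and 45.1 CPM in the 9-month livers and at 64, 113, 56.7, 710 and 575 in the 18-month livers, and Nr1d1, a clock repressor, at 4.31 to 39.1 and 4.62 to 73.4. The acute phase gene Saa1 ranged from 98 to 716 CPM at 9 months and from 87 to 828 at 18 months, and its close relative Saa2 makes the value uncertain.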
